A study of Mus musculus with 2 samples.

Results

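Mir203, Mir205 and Mir31 are microRNA genes best known from surface epithelia such as the epidermis, and their levels were measured here in the kidney of the mouse embryo. The 3 genes were chosen by name, and all 3 have a row among the 1973 microRNA gene rows of the deposited tables. The series holds 1 group of 2 libraries, numbered replicates 1 and 2, made from kidneys of healthy B6NCrl embryos at embryonic day 16.5, with males and females pooled. Replicate 2 pooled 41 embryos, while the labels state no number for replicate 1. Both libraries carry the same donor record, so the spread between them may be partly technical. There is no second condition, and every difference between libraries given here compares these pools of embryos.

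A microRNA gene is transcribed into a hairpin, from which the enzymes Drosha and Dicer cut a short duplex. Either strand of the duplex can be loaded into an Argonaute protein, where its seed, bases 2 to 8, pairs with messenger RNAs and lowers their output. In mouse epidermis miR-203 is known to restrain the stem cell factor p63 as keratinocytes leave the basal layer. miR-205 is known as an epithelial microRNA that represses Zeb1 and Zeb2 together with the miR-200 family, and in mouse skin it supports stem cell growth. miR-31 is known from the hair cycle and from wound edges of mouse skin.

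The hairpins are shown because the tables count reads per hairpin and not per arm. They come from RefSeq on GRCm38.p6, in which all 3 genes were matched, and the capitals mark the annotated 5p and 3p mature sequences.
Mir203 hairpin: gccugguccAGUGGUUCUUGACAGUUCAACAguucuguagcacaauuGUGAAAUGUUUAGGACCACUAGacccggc
Mir205 hairpin: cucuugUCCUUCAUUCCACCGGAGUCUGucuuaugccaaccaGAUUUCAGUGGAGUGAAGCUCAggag
Mir31 hairpin: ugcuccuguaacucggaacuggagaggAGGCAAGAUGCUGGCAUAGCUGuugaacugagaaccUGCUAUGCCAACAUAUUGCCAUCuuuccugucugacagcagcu
The arms for which these microRNAs are best known are shown next with the seed in capitals, since the seed sets the family to which a microRNA belongs.
miR-203-3p: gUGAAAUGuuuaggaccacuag
miR-205-5p: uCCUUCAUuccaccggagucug
miR-31-5p: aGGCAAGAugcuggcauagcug
None of these seeds is shared between the 3 genes. None of the 6 arms shares its seed with another gene among the 1738 mature sequences of the RefSeq table, nor even bases 2 to 7 of its sequence. Of the 352 detected genes with a RefSeq mature sequence, 156 (44.3%) likewise had no seed shared with another gene, so an unshared seed is common in this tissue.

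The hairpins also shared little sequence with other microRNA genes of GENCODE M21, which bears on how far their counts can be trusted. The gene rows leave out reads with several mapping places, so a gene with a near copy is undercounted. The longest stretch in common with another microRNA gene of GENCODE M21, on either strand, was 11 nt for Mir203, 14 nt for Mir205 and 12 nt for Mir31. All are shorter than a mature microRNA. This search does not cover miR-203b, described below, which RefSeq annotates on the strand opposite to the Mir203 hairpin. The hairpins are 76, 68 and 106 nt long in Mir203, Mir205 and Mir31, against a median of 84 nt over 333 detected genes. Their G and C content was 48.7% in Mir203, 50.0% in Mir205 and 50.0% in Mir31, against a median of 50.5%.

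None of the genes has a close microRNA neighbour, by the GENCODE M21 annotation of the same assembly. Mir203 lies on chromosome 12 from 112130880 to 112130955 on the plus strand, between genes, 3.32 kb from the end of Aspg and 15.3 kb before the start of Kif26a. Mir205 lies on chromosome 1 from 193507463 to 193507530 on the minus strand. It falls wholly within an exon of the long noncoding RNA gene 4631405K08Rik, named Mir205hg by RefSeq. Mir31 lies on chromosome 4 from 88910557 to 88910662 on the minus strand, wholly within an exon of the long noncoding RNA gene AL805899.1. No other gene with a row lies within 10 kb of any of them. The nearest microRNA rows are Mir3073a, 21.6 kb from Mir203 at a mean of 0.375 counts per 1000000 (CPM), Mir491, 788 kb from Mir31, and Mir3962, 1314 kb from Mir205.

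The tables held 7128703 reads on the strand of a microRNA gene in replicate 2 and 5317669 in replicate 1, and CPM were computed from these totals. A count of 0 allows a level of up to 0.421 CPM in replicate 2 and 0.564 CPM in replicate 1, since it allows 3 reads. Intervals and this limit cover counting error only. Detection was set at 1 CPM in each of the libraries, which was reached by 387 of the 1973 genes (19.6%). The kidney tubule list, set with earlier results known, had 6 of its 7 members detected, among them Mir30a at 15587 ± 2106 CPM and Mir204 at 227 ± 1.99 CPM, and Mir211 stayed under 1 CPM. Endothelial Mir126a (52093 ± 762 CPM), smooth muscle Mir143 and Mir145a and 4 measured blood genes were detected as well. So were marker genes of tissues outside the kidney, namely endocrine Mir375 at 702 ± 234 CPM, striated muscle Mir206 at 277 ± 14.1 CPM and Mir133b at 2.63 ± 0.541 CPM, and liver Mir122 at 191 ± 27.6 CPM. Mir1a-1 of the striated muscle list had 0 reads in both libraries. Mir375, Mir206 and Mir122 all stood above Mir31, and their part in the levels of the 3 genes was not tested. The 3 measured neuronal genes, Mir124a-1, Mir124a-2 and Mir9-2, held at most 1 read in a library.

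The members, the measured genes of the lists, the level neighbours and the others named made 56 genes checked. Of these, 17 share a stretch of 18 nt, on either strand, with another microRNA gene. Where the stretch lies at another place in the genome, the level may be an undercount. Where it belongs to a gene annotated opposite at the same place, reads are not lost in this way. These cases were not told apart, so the levels of the 17 genes are uncertain. The neuronal genes are among the 17, as are Mir1a-1 and Mir133b of striated muscle, Mir30a, Mir194-1 and Mir194-2 of the tubule list, Mir126a, and Mir451a of blood. The others are Mir125b-1, Mir125b-2 and Mir24-2 of the skin-linked list, Mir27b, Mir708, Mir337 and Mir3073a.

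All 3 genes were detected in both libraries, at levels that spanned more than a factor of 10. Mir203 was counted with 11812 reads in replicate 2 and 9370 in replicate 1. This gave 1657 CPM (exact Poisson 95% interval 1627 to 1687) in replicate 2 and 1762 CPM (1727 to 1798) in replicate 1, a mean of 1710 ± 74.3 CPM (SD, n = 2). Mir203 ranked 62nd of all gene rows by mean CPM, above 84.0% of the detected genes. Replicate 2 was the lower library, and the counting intervals of the libraries did not overlap. With this many reads a small difference is enough for that, and the share of all genes with intervals apart was not counted.

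Mir205 was counted with 5472 reads in replicate 2 and 3547 in replicate 1. Its level was 768 CPM (747 to 788) in replicate 2 and 667 CPM (645 to 689) in replicate 1, with a mean of 717 ± 71.1 CPM (SD, n = 2) and the 92nd rank. Here replicate 2 was the higher library. The intervals again did not overlap, for which a small difference is enough at such read numbers, and the share over all genes was not counted.

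Mir31 was the lowest of the genes, with 920 reads in replicate 2 and 618 in replicate 1. Its level was 129 CPM (121 to 138) in replicate 2 and 116 CPM (107 to 126) in replicate 1, and its mean was 123 ± 9.08 CPM (SD, n = 2), at the 166th rank. The intervals of the libraries overlapped for this gene. It still stood above 57.1% of the detected genes, whose median level was 64.2 CPM.

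**Figure D1:**
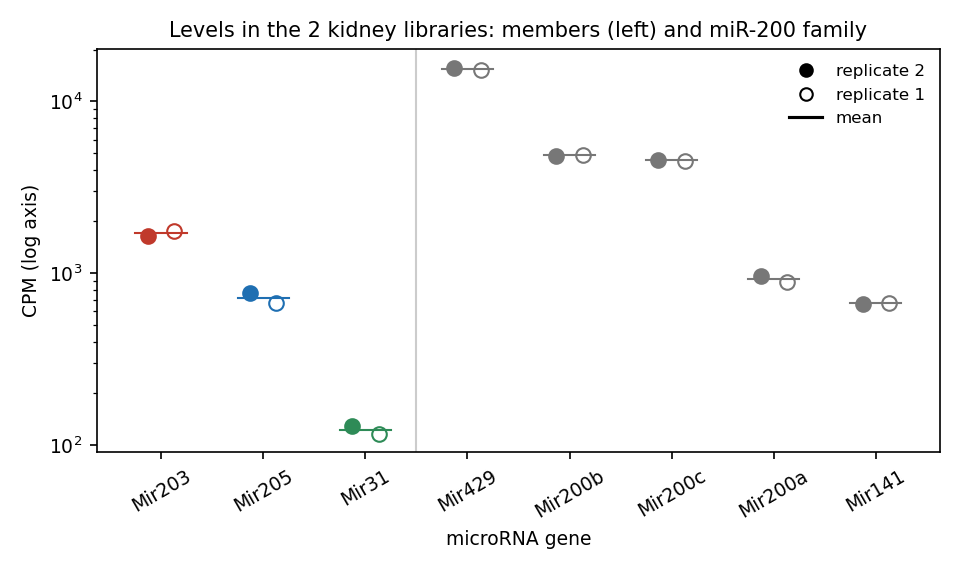
CPM on a log axis of Mir203, Mir205 and Mir31 (left) and of the 5 genes of the miR-200 family (right), with replicate 2 as filled points, replicate 1 as open points and the mean as a line. The libraries lie close together for every gene shown, Mir203 lies between Mir200c and Mir200a, and Mir31 lies below all others at 123 CPM.

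**Figure D2:**
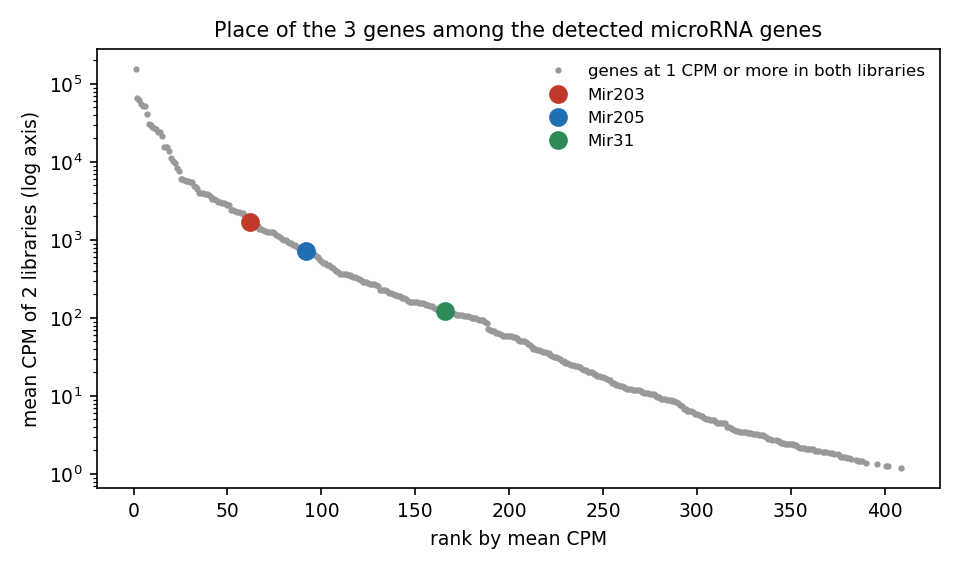
Mean CPM of both libraries on a log axis against rank, for the 387 detected genes (grey), with the 3 genes in colour. Mir203 stands at rank 62, Mir205 at rank 92 and Mir31 at rank 166.

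The 3 genes together held 0.255% of the reads of microRNA genes in replicate 2 and 0.255% in replicate 1. Within that sum, Mir203 took 64.9% in replicate 2 and 69.2% in replicate 1. Mir205 took 30.1% and Mir31 5.05% in replicate 2, against 26.2% and 4.57% in replicate 1. As a share of library totals the sum was thus nearly equal in the libraries, while Mir203 took a smaller and Mir205 a larger part of it in replicate 2. The TMM scaling explained below lowers ratios of replicate 2 to replicate 1 by 0.14 log2, and the sum was not computed with it. These tissues are bulk pools, so fewer cells of a type and less RNA per cell cannot be told apart.

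The order Mir203, Mir205, Mir31 was the same in both libraries. Folds between genes are means over the libraries of differences in log2(CPM + 1). They were set beside 1.34-fold (0.43 log2), the 95% bound on a difference between 2 genes that the replicate spread alone gives. It rests on a pooled replicate SD of 0.22 log2 over the 181 genes averaging 100 CPM or more. Of the summed variance behind that SD, 38.9% came from Mir449a, a gene of multiciliated cells, at 246 CPM in replicate 2 against 40.2 CPM in replicate 1. Without Mir449a, a choice made after the values were seen, the bound was 1.26-fold. Mir203 stood 2.39-fold above Mir205 (log2 1.25 ± 0.21, SD, n = 2) and 13.8-fold above Mir31 (3.79 ± 0.17). Mir205 stood 5.80-fold above Mir31 (2.54 ± 0.04). All 3 folds exceeded both bounds. A bias that favours reads of 1 gene alike in both libraries lies outside these bounds and was not measured. With fragments under 30 nt a read covers about a whole mature microRNA, so reads were not divided by length in these folds. Divided by the length of the annotated gene, the folds were 2.13 for Mir203 over Mir205, 19.3 for Mir203 over Mir31 and 9.05 for Mir205 over Mir31, in the same order.

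The ratio of reads of Mir203 to reads of Mir205 does not depend on how the libraries are scaled. It was 2.16 in replicate 2, with an exact conditional 95% interval of 2.09 to 2.23, against 2.64 (2.54 to 2.75) in replicate 1. The ratio of Mir203 to Mir31 was 12.8 (12.0 to 13.7) in replicate 2, against 15.2 (14.0 to 16.5) in replicate 1. The ratio of Mir205 to Mir31 was 5.95 (5.55 to 6.38) in replicate 2 and 5.74 (5.27 to 6.26) in replicate 1. Both ratios with Mir203 were lower in replicate 2 by more than counting error, and the ratio of Mir205 to Mir31 was not.

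Among epithelial microRNAs the 3 genes took middle and low places. The miR-200 family, which holds the epithelial state by repressing Zeb1 and Zeb2, had 5 of 5 members detected, with a median of 4552 CPM and a summed level of 26528 ± 343 CPM. The sum of Mir203, Mir205 and Mir31 was 2549 ± 5.89 CPM. The sensory epithelium cluster of Mir183, Mir96 and Mir182 had 3 of 3 detected and a sum of 5518 ± 140 CPM.

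Mir203 stood 9.09-fold below Mir429, the highest of these genes at 15538 ± 298 CPM, and 2.66-fold below Mir200c (4552 ± 34.3 CPM). It stood 1.85-fold above Mir200a (923 ± 55.7 CPM), a step beyond 1.34-fold. Mir183, at 2282 ± 208 CPM, lay 1.33-fold above Mir203, a step within the bound of 1.34-fold but past that of 1.26-fold without Mir449a.

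Mir205 lay within both bounds of its nearest neighbours in this order. Mir96 (859 ± 8.09 CPM) lay 1.20-fold above it, and Mir205 lay 1.07-fold above Mir141 (667 ± 3.71 CPM). The read ratio of Mir205 to Mir141 was 1.16 (1.11 to 1.20) in replicate 2 and 0.996 (0.951 to 1.04) in replicate 1, so the libraries did not give 1 order. Mir205 lay 1.29-fold below Mir200a per read, within the bound of 1.34-fold but past that of 1.26-fold, and 1.03-fold above it per length of the annotated gene.

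Mir31 closed the order, 5.41-fold below Mir141 and 126-fold below Mir429, both far beyond the replicate spread. The other skin-linked genes on the list, chosen for roles described in skin and also known from many tissues, had 6 of 6 measured members detected. They reached from Mir214 at 3833 ± 593 CPM to Mir34a, a target of p53, at 118 ± 9.59 CPM. Mir24-1 of that list has no row and was not analysed here. No marker of a single surface epithelium is among the lists, so the part of skin or urothelium in these pools was not tested.

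Many genes lay at about the same level as each member, and likeness here means level only. Within 1.34-fold of Mir203 in mean log2(CPM + 1) lay 15 genes, of which the nearest in rank were Mir140 (2028 ± 121 CPM) and Mir27b (1875 ± 222 CPM) above, and Mir708 (1708 ± 102 CPM) and Mir324 (1685 ± 108 CPM) below. The closest was Mir708, at -0.0019 log2 from Mir203. Within 1.34-fold of Mir205 lay 18 genes, with Mir381 (749 ± 57.5 CPM) and Mir187 (719 ± 60.3 CPM) above, and Mir542 (711 ± 41.8 CPM) and Mir674 (705 ± 4.06 CPM) below. At the level of Mir31, within the same fold, lay 40 genes, with Mir135b (127 ± 15.6 CPM) and Mir672 (123 ± 29.1 CPM) above, and Mir665 (118 ± 18.9 CPM) and Mir34a below. With the bound of 1.26-fold the numbers were 9 genes for Mir203, 15 for Mir205 and 28 for Mir31. Likeness was measured over 2 libraries of 1 tissue, which cannot show whether genes vary together.

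The libraries were then set against each other gene by gene, as ratios of replicate 2 to replicate 1 with TMM scaling. TMM, which scales libraries on the bulk of the genes, lowered every log2 ratio by 0.14 relative to library totals. A ratio past 1.5-fold in either direction was called a difference. None of the 3 genes was called, against 99 of 455 genes with at least 10 reads summed (21.8%) and 3 of the 181 genes averaging 100 CPM or more (1.66%). Of the 99 called genes 11 had at least 100 reads summed, as all 3 members had. With 1 library on each side no p-value was computed.

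Mir203 had a log2 ratio of -0.22 (exact conditional 95% interval -0.26 to -0.18), or 0.856-fold, and was lower in replicate 2 also with library totals (-0.09) and with DESeq2 size factors (-0.24). Of the 181 better counted genes 141 had a ratio closer to 0. Mir205 had a log2 ratio of 0.07 (0.006 to 0.13), with 44 of the 181 genes closer to 0. With library totals its ratio was 0.20, and with DESeq2 size factors it was 0.05 (-0.01 to 0.11), an interval that includes 0. Mir31 had a log2 ratio of 0.02 (-0.13 to 0.17), an interval that includes 0. Its ratio was 0.15 with library totals and -0.004 with DESeq2 size factors, so no direction can be given for it.

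With TMM scaling, the median log2 ratio was -0.12 in the 5 miR-200 genes and -0.15 in the 3 sensory epithelium genes. It was 0.03 over all 455 genes, which were not matched to these lists in level. TMM had lowered each ratio by 0.14. In CPM from library totals, both lists had a higher sum in replicate 2. The miR-200 sum was 26770 CPM in replicate 2 and 26285 CPM in replicate 1. For the sensory epithelium it was 5616 CPM in replicate 2 and 5419 CPM in replicate 1. The medians used TMM and the sums library totals, so scaling and measure changed together and no single direction is given. In the sensory epithelium list, Mir182 was higher in replicate 2 by CPM (2628 against 2126 CPM in replicate 1). Mir96 (853 against 864 CPM) and Mir183 were lower. None of the 8 genes of both lists was called. The lowest of them was Mir183, with 2135 CPM in replicate 2 against 2429 CPM in replicate 1 (log2 ratio -0.32), below the ratio of Mir203. Mir375, of endocrine cells, was 537 CPM in replicate 2 and 867 CPM in replicate 1 (log2 ratio -0.83), and was called. Smooth muscle Mir145a was 551 CPM in replicate 2 and 361 CPM in replicate 1 (log2 ratio 0.48), and was not called. The part of such differences between the pools in the ratio of Mir203 was not tested.

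**Figure D3:**
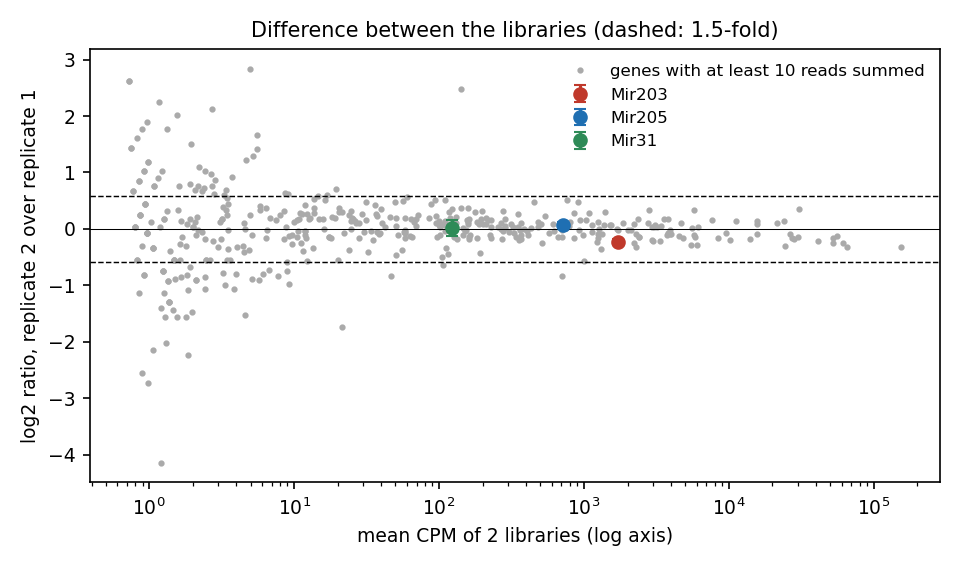
Log2 ratio of replicate 2 over replicate 1 with TMM scaling against mean CPM on a log axis, for 454 genes with at least 10 reads summed and reads in both libraries (grey), and the 3 genes in colour with exact conditional 95% counting intervals. The dashed lines mark 1.5-fold, and Mir203 (-0.22), Mir205 (0.07) and Mir31 (0.02) lie between them.

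The tables also count reads on the strand opposite to each gene, and here the members differed. Mir203 had 102 such reads in replicate 2 and 87 in replicate 1. In replicate 2 they made up 0.856% of its reads on either strand, with an exact Clopper-Pearson 95% interval of 0.699 to 1.04%. In replicate 1 they made up 0.920% (0.737 to 1.13%). The shares of the libraries lay within each other's intervals. Mir205 had 0 opposite-strand reads of 5472 in replicate 2 and 0 of 3547 in replicate 1. The same kind of interval reached up to 0.0674% in replicate 2 and 0.104% in replicate 1. Mir31 had 1 such read of 921 in replicate 2 and 0 of 618 in replicate 1.

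With both libraries summed, Mir203 had a share of 0.884%, the highest of the 181 genes averaging 100 CPM or more. Of these genes 158 had no read on the opposite strand, 7 exceeded 0.1%, and the next after Mir203 was Mir337 at 0.336%. That rank was looked up after the share of Mir203 was seen, and it leaves out genes whose own strand holds few reads. By number of opposite-strand reads Mir203 stood 12th among all gene rows.

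RefSeq annotates a further microRNA, miR-203b, on the minus strand of chromosome 12 within the bounds of the Mir203 hairpin, under the symbol Gm51289. It lies opposite to the Mir203 arms, and it has no row of its own in the tables. Its mature sequences are shown, with the seed in capitals, because their positions fall on the strand to which these reads were assigned.
miR-203b-5p: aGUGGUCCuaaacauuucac
miR-203b-3p: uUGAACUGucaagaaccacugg
The first is annotated from 112130927 to 112130946 and the second from 112130887 to 112130908. Neither seed is shared with Mir203 or with another gene of the RefSeq table. On the scale of the levels these reads come to 14.3 CPM in replicate 2, against 16.4 CPM in replicate 1. The tables give no position or sequence of a read, so whether these reads are miR-203b was not tested.

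**Figure D4:**
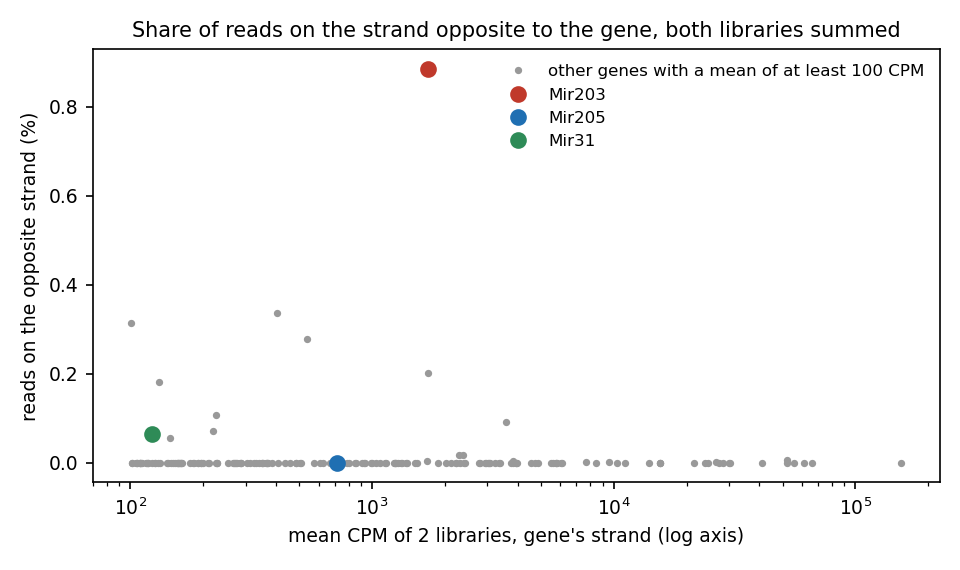
Share of reads on the strand opposite to the gene, in percent with both libraries summed, against mean CPM on a log axis, for 181 genes averaging 100 CPM or more. Mir203 stands at 0.884%, Mir205 at 0 and Mir31 at 0.0650%, and most other genes (grey) lie at 0.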

How the data were processed

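Small RNA libraries, labelled as fragments under 30 nt, were made from 2 pools of embryonic mouse kidney. The authors deposited raw read counts for each microRNA gene, computed on assembly mm10 with annotation M4, per the files that accompany them. The aligner, the counter and the trimming were not given in the sources used here. In all 1973 gene rows the first count equals the sum of the other 2, taken as the gene's strand and the opposite strand. Rows that name no gene took 51.5% of 14706415 reads in replicate 2 and 55.2% of 11877442 in replicate 1. Reads mapping to several places, 25.3% in replicate 2 and 28.0% in replicate 1, are among them, and all were kept out of totals.

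Identifiers were matched to GENCODE M21 on GRCm38 (1894 of 1973 rows). CPM used the sense reads of gene rows. Ratios used edgeR 4.0.16 TMM factors, with DESeq2 1.42.0 size factors as an alternative, and the ratio step was checked on simulated counts. edgeR's quasi-likelihood test needs replicates on a side and was not run. Genes were named by a rule: the members, the genes of fixed marker lists, the 2 nearest genes in level on each side, and genes with a row that lie within 10 kb or share a seed. Mir10a, Mir337, Mir449a, Mir3073a, Mir491 and Mir3962, and Aspg, Kif26a, 4631405K08Rik, AL805899.1 and Gm51289, which have no row, fall outside it and were chosen after their values or positions were seen. The members and lists were chosen with earlier results of these data known.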

Additional observations from a re-analysis of the deposited data

Results flagged for a closer look

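Signal was present in a count that the levels do not use. On the strand opposite to Mir203 the libraries held 189 reads together, 102 in replicate 2 and 87 in replicate 1, against the 3 reads that a count of 0 allows in a library. No control sample exists in the series. Mir205 had 0 such reads and Mir31 had 1. Outliers were not looked for, since the group has 2 samples.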

How the results depend on the processing

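The order Mir203, Mir205, Mir31 held in the means under every alternative run for levels and folds. Per 1000000 of all reads in the tables the means were 796 CPM for Mir203, 335 for Mir205 and 57.3 for Mir31. With Mir10a, the most abundant gene, left out of the total they were 2023, 848 and 145 CPM. Both shifts follow from the change of denominator. Counting either strand or scaling by TMM moved the means by less than 1 SD. Per length of the annotated gene, the log2 fold of Mir203 over Mir31 was 4.27 and that of Mir205 over Mir31 was 3.18. With 5 CPM added before log2, Mir205 over Mir31 was 2.50, against 2.54 with 1. Without either replicate, each level and fold equals the value of the other library. Without Mir449a the smallest fold past the replicate spread was 1.26 in place of 1.34. The folds between Mir203 and Mir183 and between Mir205 and Mir200a lay past the smaller value only. The ratio of Mir31 between libraries changed sign with DESeq2 size factors, to -0.004, and was not called under any scaling.

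The count of genes past 1.5-fold was 99 with at least 10 reads summed, 11 with at least 100 and 156 with at least 1 read in each library, settings that test 455, 290 and 566 genes. With library totals it was 110, of which 57.3% were higher in replicate 2, against 50.5% with TMM. At 10 CPM or more, the striated muscle list had 1 detected member in place of 2. No paired analysis was possible because the series holds 1 group. Depth limits Mir31 most, whose interval spans 121 to 138 CPM in replicate 2.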
